A study of Mus musculus with 2 samples.

Results

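Clustered histone genes were examined in total RNA of mouse hippocampus, the medial temporal brain structure that holds the pyramidal neurons of the CA fields and the granule cells of the dentate gyrus. Members were all genes whose symbol begins with Hist1h, Hist2h, Hist3h or Hist4h and that have at least 1 protein-coding transcript, which gave 67 of 55536 annotated genes. They comprise 6 genes for the linker histone H1, 18 for H2A, 18 for H2B, 12 for H3 and 13 for H4. RNA came from male B6CASTF1/J mice, first-generation hybrids of C57BL/6J and CAST/EiJ, aged 18 to 20 months, with 300 ng of RNA per library. The labels name no treatment, and all samples form 1 group of 2 libraries, called replicate 1 and replicate 2, and the labels place both under a shared donor record without saying whether they are separate animals. Hence no condition is compared, errors are the SD over n = 2 libraries, and that spread may be technical. The annotated genes hold 34563482 expected counts in replicate 1 and 32370292 in replicate 2, and a count of 0 allows up to 3 counts, or 0.0868 and 0.0927 CPM (counts scaled to 1e6 per library), counting error only. All 6 hippocampal neuron markers (Prox1, Wfs1, Fibcd1, Neurod6, Slc17a7 and Snap25) were detected, from Prox1 at 29.5 ± 1.51 TPM to Snap25 at 947 ± 70.8 TPM. TPM is a level scaled to a fixed total and corrected for transcript length.

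H2A, H2B, H3 and H4 form the protein core around which DNA is wrapped in the nucleosome, and H1 binds the linker DNA between nucleosomes. The clustered genes are classically replication-dependent: they lack introns, are transcribed mainly in S phase, and their mRNAs end in a short stem-loop bound by the stem-loop binding protein SLBP instead of a poly(A) tail. RNA selected for poly(A) therefore largely misses these transcripts, whereas total RNA can retain them, and some clustered genes are also known to make polyadenylated mRNA in cells that no longer divide. Replacement histones are encoded elsewhere. Those such as H3f3a and H2afz carry introns and poly(A) tails and are made throughout the cell cycle, which need not hold for every replacement gene listed here. Histone H4 has no separate replacement gene in the lists used here.

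The stem-loop was searched as the letters GGNNNTTNTNAGNNCC, 16 bases on the given strand, in the annotated transcripts (GENCODE M21, mm10). These letters were present in 46 of the 67 members, against 1.75% of 21901 protein-coding genes, and began 21 to 58 bases after the stop codon. By class they were found in 4 H1, 11 H2A, 10 H2B, 9 H3 and 12 H4 genes, and 15 of the 21 members without them have an annotated transcript that ends within 24 bases of the stop codon. The 46 genes carry 8 versions. The most common version was shared by 26 H1, H2A, H2B and H3 genes, and none of the 26 encodes H4. The H4 genes use other stems, of which the leading one occurs in 7 genes. The sequences below, read from the reference with capitals marking the stem-loop, show that the stem letters of the H4 genes differ from those of the other classes. They are from Hist1h1c (capitals at chr13:23739512-23739527, plus strand), Hist2h2aa2 (chr3:96239784-96239799, minus strand), Hist1h3e (chr13:23561903-23561918, minus strand), Hist1h4h (chr13:23531458-23531473, plus strand), Hist1h4d (chr13:23581950-23581965, plus strand) and Hist1h4b (chr13:23757366-23757381, plus strand).
Hist1h1c: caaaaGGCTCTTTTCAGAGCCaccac
Hist2h2aa2: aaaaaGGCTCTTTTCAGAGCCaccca
Hist1h3e: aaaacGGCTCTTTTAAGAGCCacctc
Hist1h4h: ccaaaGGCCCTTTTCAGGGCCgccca
Hist1h4d: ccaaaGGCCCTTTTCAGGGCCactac
Hist1h4b: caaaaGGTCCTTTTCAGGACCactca

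Many members encode identical proteins from different DNA, which bears on how reads can be assigned. All 13 H4 genes encode 1 protein of 103 residues, and the 12 H3 genes encode 2 proteins of 136 residues. The 18 H2A genes encode 9 proteins, the 18 H2B genes 11, and each of the 6 H1 genes its own. Over the 78 pairs of H4 genes, identity of the 309 coding bases ran from 85.4% to 100%, with a median of 93.9%, and Hist1h4m and Hist1h4n were the pair with no difference. The first 60 coding bases of 4 highly expressed H4 genes follow, with capitals at each base that differs from Hist1h4h; every difference leaves the protein unchanged. Over the whole coding sequence, Hist1h4k differs from Hist1h4h at 14 bases, Hist1h4m at 10 and Hist1h4d at 19. The genes lie at chr13:23531050-23531519 (Hist1h4h), chr13:21750194-21750505 (Hist1h4k), chr13:21811746-21812147 (Hist1h4m) and chr13:23581598-23582735 (Hist1h4d).
Hist1h4h: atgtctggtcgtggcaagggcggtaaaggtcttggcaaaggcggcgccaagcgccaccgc
Hist1h4k: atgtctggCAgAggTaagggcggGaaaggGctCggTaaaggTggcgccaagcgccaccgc
Hist1h4m: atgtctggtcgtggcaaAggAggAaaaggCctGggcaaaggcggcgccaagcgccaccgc
Hist1h4d: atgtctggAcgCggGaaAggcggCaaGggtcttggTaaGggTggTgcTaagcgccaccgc

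Clustered histone RNA was present in both libraries, and most of the genes were detected. Detection meant reaching 1 TPM in each library, and 54 of the 67 members (80.6%) did so, against 25.7% of all genes and 57.5% of protein-coding genes. The median member stood at a mean of 6.29 TPM, against 3.15 TPM for protein-coding genes. Among detected genes the order was the other way, with medians of 11.7 TPM for members and 14.6 TPM for protein-coding genes. Members at a mean of at least 10 TPM numbered 29. Together the members held 16064 expected counts in replicate 1 and 14827 in replicate 2, or 0.0465% and 0.0458% of all gene counts. Their TPM summed to 1153 and 1171, which is 0.283% and 0.275% of the TPM of nuclear protein-coding genes. The RNA was concentrated in few genes: the 5 highest members held 43.2% ± 0.928 of the members' TPM and the 10 highest held 61.9% ± 0.850 (SD, n = 2). In bulk tissue, fewer cells with a transcript and less of it per cell cannot be told apart.

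**Figure D1:**
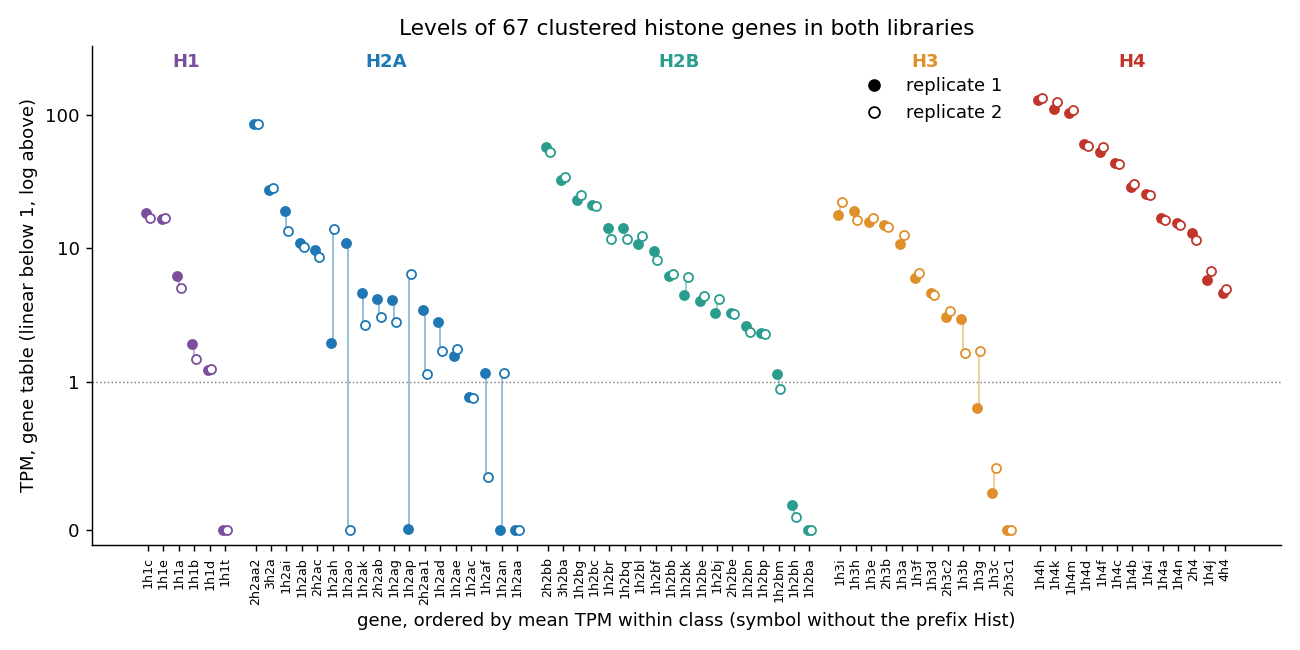
Each gene is 1 position on the x axis, grouped by histone class, with replicate 1 as a filled and replicate 2 as an open circle; the y axis gives TPM from the gene table, linear below 1 and logarithmic above. All 13 H4 genes lie above 4 TPM, and the widest gaps between the libraries are in H2A genes such as Hist1h2ao and Hist1h2ap.

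H4 led the classes. Its 13 genes summed to 614 TPM in replicate 1 and 638 in replicate 2, or 53.9% ± 0.898 of the members' TPM. H2B followed with 210 and 207 TPM, then H2A with 188 and 183 TPM, H3 with 96.2 and 101 TPM, and H1 with 44.4 and 41.7 TPM. No 2 classes overlapped between libraries, so the order of the 5 sums was the same in both. In the nucleosome the 4 core histones are present in equal number. In the gene table the H4 sum exceeded the other core sums combined, which were 495 and 491 TPM. In the est_counts table it did not, with 577 and 572 TPM for H4 against 734 and 723 TPM for the others combined, and H2A there stood above H2B. H4 was the highest class on TPM in both tables. In the est_counts table, however, Hist1h4h alone held 390 and 377 of the 577 and 572 TPM of H4. On counts in that table H2A was above H4, with 2468 and 2216 against 2038 and 1730.

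All 13 H4 genes were detected, the lowest being Hist4h4 at 4.64 and 4.99 TPM. Hist1h4h was the highest member, with 131 and 135 TPM. Hist1h4k had 111 and 125 TPM, and Hist1h4m 103 and 109 TPM. These 3 did not overlap between libraries and ranked 522, 614 and 732 among 22015 nuclear protein-coding genes by mean TPM. Hist1h4d followed at 60.5 and 58.9 TPM and Hist1h4f at 53.2 and 57.4 TPM, again without overlap. Hist1h4c reached 44.1 and 42.7 TPM, Hist1h4b 28.8 and 30.4 TPM, and Hist1h4i 25.8 and 25.3 TPM. Hist2h4, the H4 gene of the Hist2 cluster, stood at 13.1 and 11.6 TPM. Since all encode the same protein, the sum is the level of H4 mRNA from clustered genes. The share of each gene rests on base differences inside or outside the coding sequence. Hist1h4m and Hist1h4n have no coding difference, and Hist1h4m shares 88.1% of its windows with Hist1h4n. The split between these genes is therefore uncertain, with posterior SDs of 68.6 and 53.4 counts for Hist1h4m.

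Among H2A genes, 12 of 18 were detected. Hist2h2aa2, 1 of a near-identical pair on chromosome 3 (chr3:96239749-96240276), had 85.1 and 86.1 TPM. Its partner Hist2h2aa1 had 3.44 and 1.15 TPM, but every 100-base window of both genes also occurs in another annotated gene on either strand. The split between the pair is therefore uncertain, and their sum was 87.9 ± 0.948 TPM. That sum also depends on the table, at 176 and 178 TPM in the est_counts table. The annotated transcript Gm20634 holds all windows of Hist2h2aa2 and 88.3% of those of Hist2h2aa1, so the sum is uncertain too. Hist3h2a, in the Hist3 cluster on chromosome 11, had 27.6 and 28.4 TPM, and its annotated span overlaps Trim17 on the same strand by 708 bases. Hist1h2ai had 19.1 and 13.5 TPM, and Hist1h2ab 11.1 and 10.3 TPM. The 9 H2A genes of the Hist1 cluster that encode 1 shared protein summed to 44.5 ± 8.46 TPM. Per library that was 50.5 and 38.5 TPM, against 104 and 101 TPM in the est_counts table. Hist1h2ah encodes another protein but shares windows with these genes, and it had 1.94 and 14.1 TPM, so their sum is uncertain. Hist1h2aa, known as a testis form, was listed at 0 counts in both libraries.

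Among H2B genes, 15 of 18 were detected, led by Hist2h2bb at 57.5 and 53.3 TPM. Each window of Hist2h2bb is shared with an overlapping gene, among them the antisense gene Gm20628 with 46 and 42 counts, and strand use in counting is not stated. Hist3h2ba had 32.4 and 34.3 TPM and was unique in 95.1% of its windows. Hist1h2bg had 23.0 and 24.96 TPM, and Hist1h2bc 21.1 and 20.6 TPM, so that these 2 did not overlap between libraries. Hist2h2be, known in mouse for a variant H2B of olfactory sensory neurons, had 3.26 and 3.25 TPM. Hist1h2ba, a testis H2B gene, was listed at 0 counts in both libraries.

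Among H3 genes, 9 of 12 were detected. Hist1h3i had 17.9 and 22.2 TPM, and Hist1h3h 19.1 and 16.5 TPM, overlapping each other. Hist1h3e had 15.7 and 16.8 TPM and Hist2h3b 14.9 and 14.4 TPM. By protein, Hist1h3a, Hist1h3g, Hist1h3h and Hist1h3i summed to 50.9 ± 3.09 TPM, and the other 8 genes to 47.6 ± 0.120 TPM. Per library that was 48.7 and 53.1 TPM for the 4 genes against 47.5 and 47.7 TPM for the 8. The closeness holds on this scale only: TPM in the est_counts table was 58.1 and 67.1 for the 4 genes against 97.1 and 97.4 for the 8. Hist1h3h and Hist1h3i share windows with Hist1h3b and Hist1h3d, which encode the other protein, so the split between the proteins is uncertain. Hist2h3c1 was listed at 0 counts in both libraries, with a posterior SD of 5.17 and 6.24 counts.

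Among H1 genes, 5 of 6 were detected, and a pair dominated. Hist1h1c had 18.5 and 16.9 TPM and Hist1h1e 16.5 and 17.0 TPM, so they could not be ordered. Hist1h1e overlaps a transcript of Hist1h2be on the same strand by 450 bases. Hist1h1a had 6.21 and 5.06 TPM. Hist1h1b and Hist1h1d stayed below 2 TPM. Hist1h1t, the testis-specific linker histone, was listed at 0 counts in both libraries.

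By cluster, the 54 genes of Hist1 (chr13:21715763-23934851) held 906 ± 17.3 TPM, or 77.99% ± 0.631 of the members' TPM. The 10 genes of Hist2 (chr3:96219865-96270132) held 190 ± 6.68 TPM, the 2 of Hist3 (chr11:58948920-58956830) 61.3 ± 1.90 TPM, and Hist4h4 alone on chromosome 6 (chr6:136801553-136804415) 4.82 ± 0.247 TPM. The classes differed by cluster: H4 took 596 and 622 TPM of Hist1, whereas H2A led Hist2 with 102 and 98.9 TPM. Split where the gap between neighbouring genes exceeds 200 kb, Hist1 falls into 2 blocks, chr13:21715763-22043676 and chr13:23531050-23934851. The 23 genes of the block with the lower coordinates held 404 ± 13.4 TPM and the 31 genes of the other 502 ± 3.90 TPM. Median levels were close, at 6.29 and 6.23 TPM, and high H4 genes stood in both blocks beside much lower genes. Hist1h4k, at a mean of 118 TPM, lies between Hist1h4j at 6.29 and Hist1h2ak at 3.67 TPM. Likewise Hist1h4d, at 59.7 TPM, lies between Hist1h3d at 4.55 and Hist1h2be at 4.19 TPM. These contrasts hold in the gene table only. In the est_counts table Hist1h4k had 7.39 and 4.86 TPM, against 3.82 and 3.14 for Hist1h4j and 11.4 and 5.99 for Hist1h2ak. Hist1h4d had 3.35 and 0.809 TPM there, below Hist1h3d (7.99 and 7.88) and Hist1h2be (15.4 and 15.1).

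**Figure D2:**
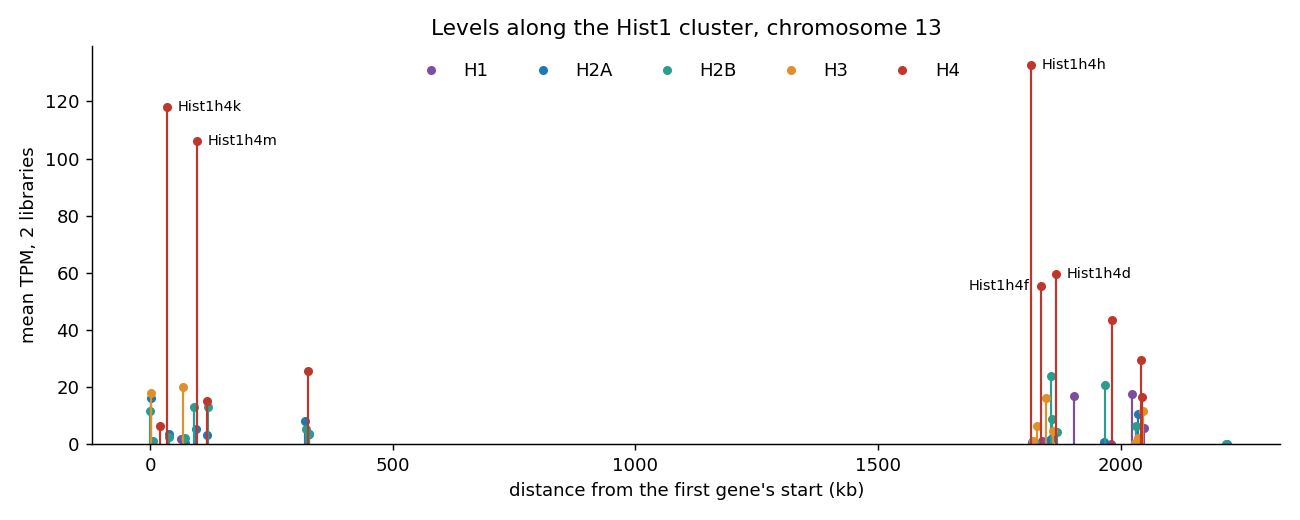
Stems give the mean TPM of the gene table over both libraries for each Hist1 gene (y axis). The x axis gives its distance in kb from the first gene's start, and colours mark the histone class. Hist1h4k and Hist1h4m stand out in the block on the left, and Hist1h4h, Hist1h4d and Hist1h4f in the block on the right.

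Clustered genes were set against 11 replacement histone genes by class. All 11 replacement genes were detected, led by H3f3a at 125 and 130 TPM and H3f3b at 105 and 107 TPM, the genes for the replication-independent H3 variant. Clustered H3 genes together reached 0.419 ± 0.00580 of the replacement H3 sum of 235 ± 4.41 TPM. Clustered H1 genes reached 0.715 ± 0.0336 of the sum of H1f0 and H1fx, 60.1 ± 0.148 TPM. Clustered H2A genes were about level with the 6 replacement H2A genes, at a ratio of 1.15 in replicate 1 and 1.04 in replicate 2. These ratios depend on the scale. On counts not corrected for length, the H2A ratio was 0.644 and 0.594, which turns its direction, and the H3 ratio 0.208 and 0.214. On counts of the est_counts table the H3 ratio was 0.147 and 0.150, and the H2A ratio 0.517 and 0.477.

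Most listed genes for histone mRNA transcription and processing and for histone chaperones were detected, though several chaperones are not tied to replication. The share among all protein-coding genes was 57.5%. Of 10 genes for histone mRNA transcription and processing, 9 were detected, with a median of 7.70 ± 0.834 TPM. Slbp, whose protein binds the stem-loop, had 7.69 and 8.86 TPM. Npat, the coactivator of histone gene transcription, had 6.53 and 7.72 TPM. Lsm11, a subunit of the U7 particle that guides cleavage of histone pre-mRNA, had 11.4 and 14.5 TPM, whereas Zfp473, another factor of that step, stayed at 0.16 and 0.17 TPM. Of 9 histone chaperone genes, 7 were detected. Among those tied to replication-independent deposition, Atrx had 66.2 and 66.3 TPM, its partner Daxx 12.96 and 14.55 TPM, and Hira 34.8 and 31.2 TPM. Of the replication-linked CAF-1 subunits, Chaf1a had 1.19 and 1.14 TPM, and Chaf1b was not detected, at 0.35 and 0.13 TPM. Asf1b, the chaperone gene of proliferating cells, was not detected either, at 0.14 and 0.21 TPM.

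Of 17 genes of S phase and mitosis 10 were detected in the same libraries, a share near the 57.5% of protein-coding genes. Their median was 1.75 ± 0.148 TPM, against 6.29 TPM for the clustered histones and 3.15 TPM for protein-coding genes. Mki67, the proliferation marker, had 0.09 and 0.12 TPM. Cdk1, the mitotic kinase, had 0.11 TPM in both, and Top2a, a topoisomerase of dividing cells, 0.38 and 0.13 TPM. Pcna, the replication clamp that also serves DNA repair, was the highest at 19.4 and 22.1 TPM. Next came Mcm7 at 6.45 and 7.08 TPM, Ccne1 at 5.78 and 5.61 TPM and Mcm6 at 5.18 and 5.09 TPM. Mcm2, Mcm3, Mcm4, Mcm5, E2f1 and Tyms were also detected, whereas Ccna2, Ccnb1, Rrm2 and Tk1 were not. Of 4 genes for progenitors and immature neurons 3 were detected, and Eomes, which marks intermediate progenitors, had 5 and 0 counts. All 3 genes for oligodendrocyte precursors, the main dividing cells of the adult brain outside the neurogenic niches, were detected, with Pdgfra at 12.5 and 12.8 TPM. The part of any cell type in the histone levels was not tested.

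After scaling by library composition, the members' summed counts had a log2 ratio of replicate 1 over replicate 2 of 0.04, with a 95% Clopper-Pearson interval of 0.01 to 0.07 that covers counting error only. Scaled by the spike-in totals the ratio was 0.22, outside that interval. Of 45 members whose mean CPM reached 1, 2 were at least 2-fold apart, against 0.517% of 14887 genes. These were Hist1h2ah, with 14.9 counts in replicate 1 and 99.5 in replicate 2, and Hist1h2ao, with 105 and 0. Both belong to a group of 10 H2A genes, whose sum was 470 and 415 counts. Genes were joined where they shared at least 50% of the 100-base windows of the gene with fewer windows, directly or through another gene. The median size of the log2 ratio was 0.10 for members and 0.07 for all genes. Choroid plexus genes moved between these libraries at the same time: a list of 4, none at 0, summed to 36.0 TPM in replicate 1 but to 691 TPM in replicate 2. Ttr made most of that sum, at 29.9 and 672 TPM, and Folr1, Kl and Clic6 were also higher in replicate 2. The members' TPM summed to 1153 and 1171.

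How far single genes can be told apart varied among members. In the median member 62.9% of 100-base windows occurred in no other annotated gene on either strand. Windows were wholly unique in 6 members and never unique in 5. For members under 20% with enough counts, the deposited posterior SD was 27.6% of the count (median of 11), against 4.56% for the other 44. Hist1h4d, with 100% unique windows, had posterior SDs of 2.85 and 2.16 on counts of 1578 and 1412.

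The deposited tables count the same reads in different ways, and for clustered histones they differed widely. The gene table was derived from an alignment to the transcriptome and the est_counts table from the reads directly. The members' summed counts were 16064 and 14827 in the gene table, against 8983 and 8033 in the est_counts table. H4 made most of the gap, with 7225 and 6725 counts in the gene table against 2038 and 1730 in the est_counts table, a ratio of 3.72 ± 0.243. The ratio was 1.42 ± 0.0177 for H2B, 1.31 ± 0.0155 for H3, 1.25 ± 0.0114 for H2A and 1.12 ± 0.0114 for H1. Over all genes the totals were close, at 34563482 and 32370292 in the gene table against 34854528 and 32438168 in the est_counts table.

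**Figure D3:**
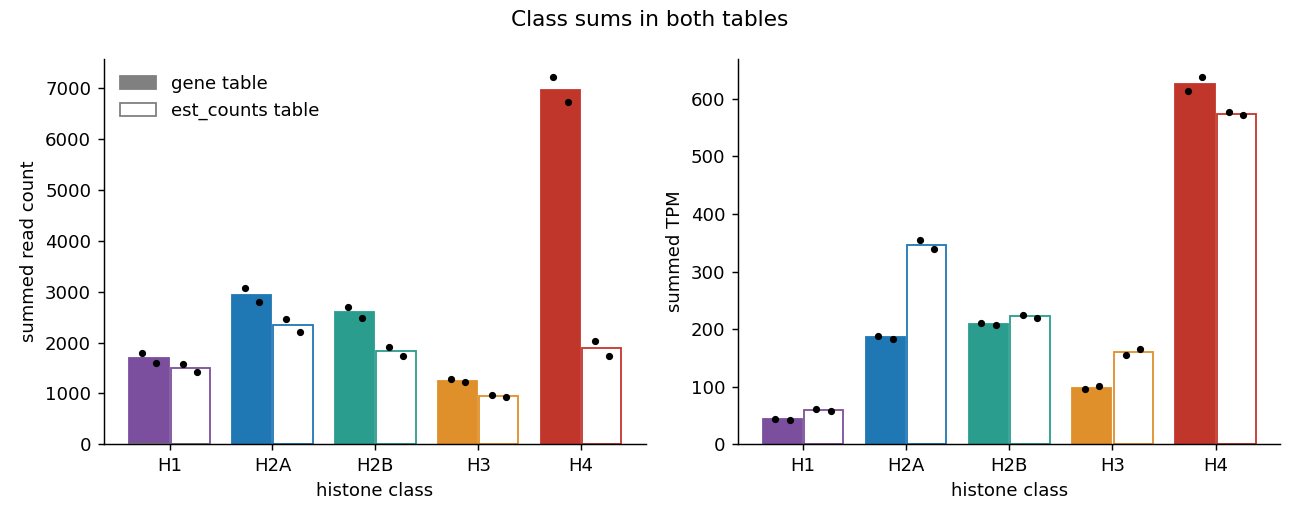
Bars give the mean over both libraries of each histone class's summed count (left) and summed TPM (right), filled for the gene table and open for the est_counts table; dots are the libraries, replicate 1 to the left. H4 counts are 6975 in the gene table and 1884 in the est_counts table, whereas on the TPM scale H4 has 626 in the gene table and 574 in the est_counts table, and the sums of the other 4 classes are lower in the gene table.

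Gene by gene, 58 members had enough counts to compare, meaning at least 10 counts in both libraries of either table. Of these, 28 (48.3%) were at least 2-fold above in the gene table in both libraries, against 2.72% of 19469 genes and 20.7% of 2171 genes up to 1000 bases long. A further 5 (8.62%) were at least 2-fold below, against 9.78% of all genes and 9.72% of those up to 1000 bases. The other 25 did not pass 2-fold in the same direction in both libraries, and some passed it in 1 library or in opposite directions. The median log2 ratio of members was 0.82 on counts, against −0.11 for all genes and 0.16 for genes up to 1000 bases. By class it was 2.26 for H4, with 11 of 13 above and 0 below, 1.30 for H2B, 0.70 for H2A, 0.38 for H3 and 0.26 for H1, with 0 of 5 above or below. On TPM, which each table corrects with its own effective lengths, the medians were −0.35 for members and −0.71 for all genes, so the members' direction against 0 is reversed. On that scale 10 of 58 members were above, against 1.97% of genes and 15.5% of genes up to 1000 bases. Another 15 were below, against 19.1% of genes and 26.5% of genes up to 1000 bases. Both shares of members are near those of genes up to 1000 bases. The H4 genes had a median of 0.98 there, with 5 of 13 above and 2 below.

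Hist1h4d gave the clearest case, since no 100-base window of it recurs in another gene and no annotated gene overlaps it. It had 1578 and 1412 counts in the gene table, against 50 and 11 in the est_counts table. Hist1h4k had 594 and 613 counts against 10 and 6, and Hist1h4f had 390 and 387 counts against 11.0 and 2. These genes encode the same H4 protein as Hist1h4h. On counts Hist1h4h differed by less than 2-fold, with 1216 and 1156 in the gene table against 1101 and 955 in the est_counts table. On TPM it was more than 2-fold lower in the gene table, at 131 and 135 against 390 and 377. Hist2h2aa2 had 917 and 852 counts in the gene table and was listed at 0 in the est_counts table. The floor of 3 counts covers counting error only, whereas every window of Hist2h2aa2 also occurs in Hist2h2aa1. The 0 can thus come from how shared reads were assigned, and no smallest fold is given for Hist2h2aa2. Its near-copy Hist2h2aa1 showed the opposite, with 42.1 and 12.9 counts against 820 and 742. The pair's sum was 959 and 865 counts against 820 and 742, so most of the difference in this pair lies in the assignment between the copies. Hist1h2ad (33.3 and 18.5 counts against 187 and 153), Hist1h2ae (23.6 and 24.4 against 88.2 and 112), Hist1h3b (39.0 and 19.7 against 138 and 112) and Hist1h2be (232 and 232 against 610 and 546) were the other members below.

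When members sharing at least 50% of the windows of the gene with fewer windows were joined, 45 groups remained. Of these, 7 held several genes, 29 in all. Of 40 groups with enough counts, 15 were above and 1 below, with a median log2 ratio of 0.56. The 10 H2A genes of the largest group then had 470 and 415 counts in the gene table against 400 and 361 in the est_counts table. The group of Hist1h4a, Hist1h4b, Hist1h4h, Hist1h4j and Hist1h4k had 2311 and 2248 counts against 1292 and 1214. For Hist1h4m with Hist1h4n the counts were 916 and 876 against 193 and 171. Joining thus brought the largest H2A group and the group of 5 H4 genes within 2-fold, with log2 ratios of 0.22 and 0.86, and left Hist1h4m with Hist1h4n above, at 2.30.

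**Figure D4:**
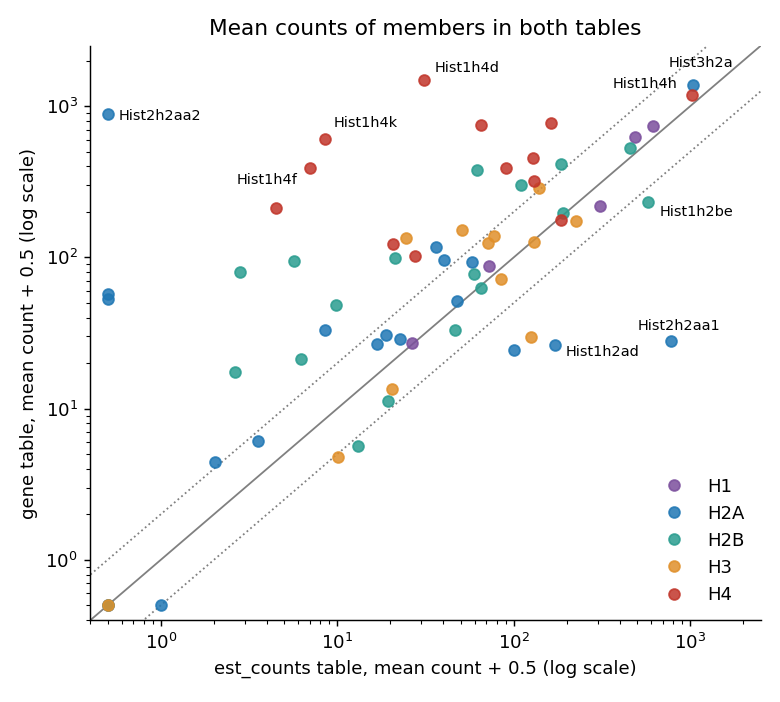
Each point is 1 member, with the mean count over both libraries plus 0.5 in the est_counts table (x axis) and in the gene table (y axis), both on log scales and coloured by class; the solid line marks equality and the dotted lines 2-fold. Hist2h2aa2 and several H4 genes lie far above the lines, Hist2h2aa1 far below, and Hist1h4h near equality.

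The ratio of the tables was also set against the distance from the annotated start to the end of the stem-loop, close to the length of a replication-dependent mRNA cleaved after its stem-loop. The split at 400 bases was chosen after the values were seen. All 9 members whose stem-loop ends within 400 bases encode H4, and all 9 were at least 2-fold above in the gene table, with a median log2 ratio of 2.59. Of 32 members with a more distant stem-loop 9 were above, with a median of 0.17, including 3 H4 genes with 1 above and a median of 0.21. Across these 41 genes Spearman's rho was −0.71 and Pearson's r with log2 distance −0.36. The genes are not independent, since they share libraries, sequence and class. Over all 58 members, rho with annotated length was −0.50. Annotated transcripts can run on: Hist1h4d is annotated for 770 bases past its stem-loop, and 23 members for more than 100 bases. The tables also differ in the length taken off each long transcript to get its effective length, 99 bases in the gene table against 339 and 345 bases in the est_counts table. Whether transcript length sets the difference between the tables was not tested.

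**Figure D5:**
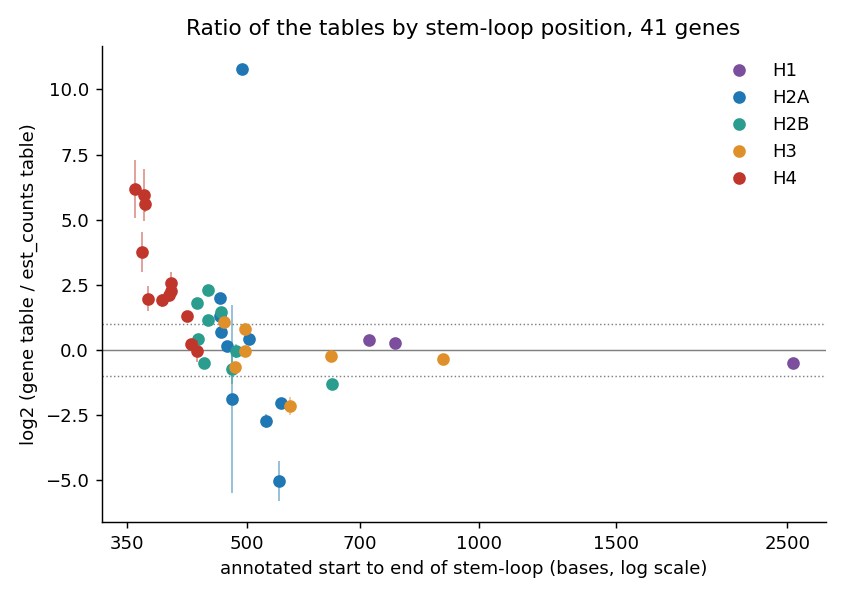
Points give the mean log2 ratio of the gene table over the est_counts table (y axis) for 41 members by the distance in bases from annotated start to stem-loop end (x axis, log scale), with a line joining the libraries and dotted lines at 2-fold. The H4 genes at the left edge lie above the upper dotted line, and the H1 genes at the right lie within the dotted lines.

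Of the 67 members 62 have a single annotated transcript, which has 1 exon in 61 of them and several in Hist1h2bc, and 5 members have several transcripts. In Hist1h2be the transcripts differ in how the tables weigh them: Hist1h2be-202 held most expected counts, 109 and 121, and Hist1h2be-201 held 75.5 and 66.0. In the est_counts table Hist1h2be-202 had 19.8 and 27.2 estimated counts and Hist1h2be-201 had 534 and 465. In Hist1h2bq and Hist1h2br the short single-exon transcript held between 98.0% and 99.1% of the gene's TPM in both libraries, and in the est_counts table it was listed at 0 for both genes.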

How the data were processed

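Total RNA libraries of 1 hippocampus group, 2 replicates numbered as in the labels, were analysed from deposited tables. Per the deposited notes, reads were compared with mm10 and GENCODE M21; which tools and versions were used is not given in the sources used here. The authors deposited, per the file headers, an expected count, TPM and a score for its spread (posterior SD) per gene, the same with the percent of a gene's TPM per transcript, and another table with an estimated count and TPM per transcript, here called the est_counts table and summed per gene. The expected count splits reads shared by near-identical genes by a model. The assembly represents C57BL/6J; CAST/EiJ alleles were not analysed.

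All 55536 gene identifiers matched the annotation. Members and lists were chosen with earlier results of these data known. Table ratios used an offset of 0.5 counts and genes with at least 10 counts in both libraries of either table. Calls needed a 2-fold difference in both libraries. For the libraries, expected counts were rounded and scaled by TMM (edgeR 4.0.16, R 4.3.3) with a prior count of 0.5, at a mean CPM of at least 1; DESeq2 1.42.0 size factors were an alternative. With 1 group and 2 libraries no p-values were computed. Stem-loops, shared 100-base windows and coding sequences came from the GENCODE M21 transcripts, promoters from RefSeq (GRCm38.p6), using Python 3.11.15 with pandas 2.3.3. Ratio steps were tested on simulated data. Genes named were the 4 highest of each class, members at a mean of at least 5 TPM, the Hist3 and Hist4 clusters, the 6 largest table ratios in each direction, the 4 largest ratios between libraries and the ends of each list; others were named after their values were seen, and not every gene the rule names is printed.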

Additional observations from a re-analysis of the deposited data

How the results depend on the processing

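The count of detected members ran from 47 to 57 over all alternatives (a TPM minimum of 2 and of 0.5, the est_counts table, rescaling, either library alone), against 54. Summed TPM of all members, H1, H2A, H2B, H3 and H4 was 1363, 59.8, 347, 222, 160 and 574 in the est_counts table, where H2A stood above H2B. Rescaled over nuclear protein-coding genes, a change of denominator by construction, the same sums were 2792, 103, 446, 502, 237 and 1504. With counts per full length, all members came to 1147, H1 to 49.3, H2B to 206 and H4 to 604. With detected members only, all came to 1148 and H2A to 175. Without replicate 1 or replicate 2, all members came to 1171 and 1153 and H4 to 638 and 614. For the tables, TPM with a pseudocount of 0.1 gave 10 members above and 15 below with a median of −0.35, a reversed direction; joining members, chosen after seeing the data, gave 15, 1 and 0.56, with fewer units by construction. The other count settings gave 24 to 28 above, 5 to 7 below and medians of 0.69 to 0.95, and leaving out a library gave 29 to 30 above, 7 below and medians of 0.79 to 1.04. Between libraries, members at least 2-fold apart were 4 at a CPM minimum of 0.5 and 7 without one, and the log2 ratio of summed counts was 0.22 with spike-in totals; the cause was not tested. No paired analysis was possible because there is only 1 group. Depth limits single low members: genes at 0 may hold up to 3 counts by counting error alone. That limit does not cover near-copies, whose shares rest on the model.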

Other observations

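Promoters of the members were searched in the RefSeq windows from 250 bases before to 50 after each start, which were given for 62 members. The letters CCAAT, the core of the CCAAT box, were present on either strand in 53 members (85.5%), against 41.1% of 27025 genes. They occurred in all 6 H1, 18 H2A, 16 H2B and 10 H3 genes with a window, but in 3 of 12 H4 genes. The letters TATAAA were present on the gene's strand in 30 members (48.4%), against 9.77% of genes, including 8 of the 12 H4 genes. A match is a description of the sequence, and absence says only that these letters are not in the window.

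Histone pseudogenes inside the clusters are not members, and the tables disagreed on them too. Hist1h2al, annotated as a processed pseudogene, had 89.8 and 88.4 counts in the gene table and was listed at 0 in the est_counts table. Hist3h2bb-ps had 28.6 and 28.7 counts against 66.6 and 60.7. Hist1h2aj was listed at 0 in both tables. The processed transcript Gm20634, which overlaps Hist2h3c1 and Hist2h2aa1 on the same strand and holds every 100-base window of Hist2h2aa2, had 351 and 341 counts against 433 and 413, while Hist2h3c1 itself was listed at 0.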
